A study of Mus musculus with 2 samples.

Results

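The cytosolic ribosomal protein genes encode the proteins of the large (Rpl and Rplp genes) and small (Rps genes) subunits of the ribosome outside mitochondria. Members were chosen by symbol alone: Rpl or Rps, then a number, then at most one of the letters a, x, y or l and one further digit, or else Rplp0, Rplp1, Rplp2 or Rpsa. The rule used no measured value, but it was chosen with earlier results of these data known. It matched 84 of 22609 symbols in the count table, and 76 of these 84 had at least 20 reads over both libraries and were kept for ratios, among 12186 genes that passed the same minimum.

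The data were RNA co-purified with Argonaute 2 (Ago2), the protein that carries microRNAs to their target messages, from TM4 cells, an established line of mouse Sertoli cells, the nurse cells of the seminiferous tubule. One sample was transfected with a mimic of miR-471-5p and the other with scramble, both in the same medium with serum, and 48 h later RNA bound by an Ago2 antibody was purified and sequenced. Each group was 1 library, so no ratio has a replicate check, the 2 libraries rather than the 2 conditions were compared, and no p-value is given. No input RNA was analysed here, so a higher read share in an Ago2 library can be told apart neither from a higher amount of that message in the cells nor from more RNA carried through the precipitation. Fewer cells and less RNA per cell cannot be told apart either.

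Most ribosomal proteins enter each ribosome in equal number, and their messages are short, abundant and present in every growing cell. In mammals most of these messages begin with a run of pyrimidines, the 5′ terminal oligopyrimidine (TOP) tract, through which growth signalling by mTOR sets their translation. The genes have left many processed pseudogene copies across the genome, so short reads from them often align to more than 1 place.

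The transfected microRNA is shown because every comparison turns on it. Its mature sequence from RefSeq, on the minus strand of GRCm38.p6 chrX:66792634-66792655, is given with bases 2 to 8, the seed, in capitals.
miR-471-5p: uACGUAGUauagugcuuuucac
The complement of that seed, ACTACGT, was found in the 3′ untranslated region of 0 of the 76 kept members and in the coding region of 0 of the 76. Among all tested genes, the match was present in 1.42% of 3′ untranslated regions and 4.35% of coding regions. Members have short 3′ untranslated regions, with a median of 89 bases against 1040 over all tested genes, so the searched stretch was shorter.

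Pyrimidine runs just before annotated starts are shown for this gene family. The 5 members with the longest run of C and T ending at an annotated RefSeq start are given. Shown are the 30 bases of GRCm38.p6 before the start, with the run in capitals. These bases lie upstream of the annotated start, so by that annotation they are not part of the message or its TOP tract.
Rpl34, chr3:130730338-130730367, minus strand: ctgaactcacccgCCCCTTCCTTTTCCTCT
Rpl7a, chr2:26910777-26910806, plus strand: tacttatcccccacaaTTCCCTCTTCTTTC
Rpl19, chr11:98026894-98026923, plus strand: tcatggagtggggcttgggCTCTCCCCTTC
Rpl14, chr9:120571487-120571516, plus strand: cacatgcgcacggcagggcgggCCCTCTCT
Rpl35, chr2:39005132-39005161, minus strand: agtagttgaggaagtcggccccgCCCTTTC
These 5 genes were not among those with the highest ratios: the log2 ratio of mimic over scramble was 0.52 for Rpl34, 0.17 for Rpl7a, 0.41 for Rpl19, 0.46 for Rpl14 and 0.55 for Rpl35. A C followed by at least 4 more C or T, beginning within 5 bases of an annotated start, was present for 28 of the 57 members with a promoter entry (49.1%), against 21.2% of 27025 genes in the table. The median log2 ratio was 0.67 over the 28 members with such a run and 0.49 over the 29 without one. Ratios also fell with coding length, as given below. Members with and without a run were not compared within length classes, so the part of length was not tested. The letters TATAA, within 40 bases before the start and ending more than 20 bases before it, were present at 4 of 68 member starts (5.88%) and 3.31% of all starts. Rps26, whose TATAA ends 20 bases before the start, was not counted. Letters in a window are a description and not a mapped start.

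The mimic library held 18628310 reads on genes and the scramble library 18717225, spread over 15227 and 15134 genes. TMM factors were 1.003 and 0.9974. The Mir471 row held 0 reads in both libraries, so the table gives no check of the transfection. Of the Sertoli markers, Sox9 had 1228 reads in the mimic and 1070 in the scramble library, Gata4 341 and 365, and Wt1 73 and 35, while Fshr, the receptor for FSH, was at 0 in both and Amh had 5 in both. The 12 listed Sertoli markers that were found summed to 764 and 955 reads per 1000000 reads on genes (CPM), 7 of the 12 with over 3 reads in both libraries. Kitl, the stem cell factor gene, made up most of these sums at 657 and 864 CPM, and without it the other markers summed to 107 and 91.9 CPM, higher in the mimic library. Germ cell markers summed to 6.76 and 7.59 CPM (4.29 and 3.63 without Ddx4), Leydig cell markers to 3.76 and 4.38, and macrophage markers to 1.4 and 1.82, with Ptprc and Emr1 at 0. Peritubular cell markers summed to 3920 and 5440 CPM, nearly all of it Acta2, with 73076 and 101778 reads, while Myh11 had 6 and 6. With Kitl and Ddx4 included, each of these sums was lower in the mimic library, and the part of these genes in the ratios below was not tested.

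Ribosomal protein messages took a larger share of the Ago2-bound reads after transfection of the mimic. The 76 kept members held 257927 reads after the mimic and 196819 after scramble. That was 1.38% of reads on genes (95% exact Clopper-Pearson interval 1.38 to 1.39) against 1.05% (1.05 to 1.06), a summed log2 ratio of 0.39 (0.38 to 0.4), or 1.31-fold. Intervals and floors here cover counting error only, since reads are not independent molecules. A count of 3 reads, the limit that a count of 0 allows, is 0.161 CPM in the mimic and 0.16 CPM in the scramble library.

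Member by member, the ratio leaned the same way. On the log2 scale the median ratio was 0.55 over the 76 kept members (quartiles 0.26 and 0.9), beside a median of 0 over all 12186 tested genes (quartiles -0.27 and 0.31). Of the 76, 72 had a ratio above 0, as did 6086 of the 12186 tested genes. At least 1.5-fold higher in the mimic library were 36 members (47.4%), while 11.7% of all tested genes were. At least 1.5-fold lower was 1 member, beside 9.11% of all tested genes. At least 2-fold higher were 10 members against 3.96% of tested genes, and at least 2-fold lower were 0 against 3.08%. The counting interval lay above 0 for 49 members and below 0 for 0, whereas over all tested genes it lay above 0 for 31.5% and below 0 for 32.5%. For 27 members it spanned 0.

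**Figure D1:**
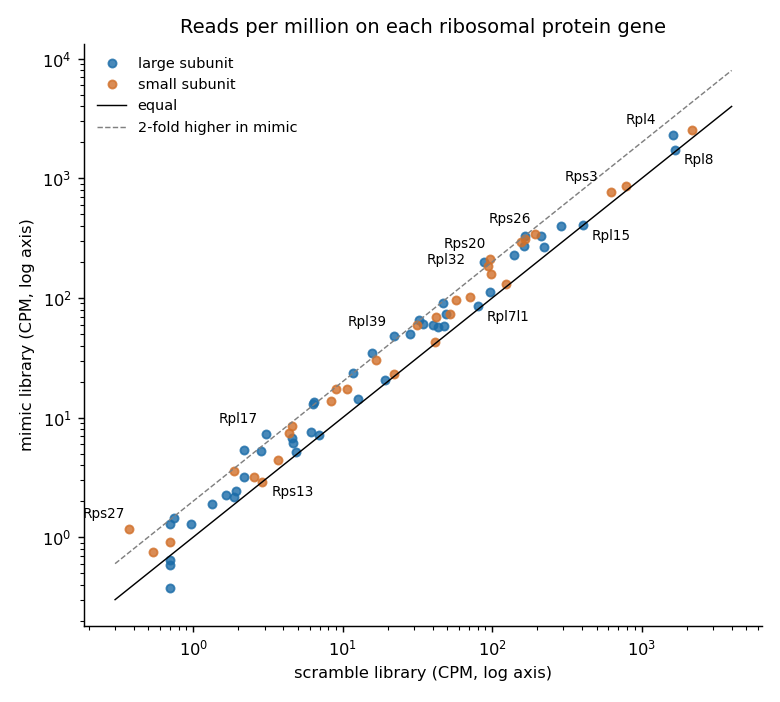
CPM of each of the 76 kept ribosomal protein genes, scramble library on the horizontal and mimic library on the vertical axis, both logarithmic, with 1 point per gene. Nearly all points lie on or above the line of equal values and 10 lie above the dashed line of 2-fold, while Rpl8, near the upper end, lies close to equality.

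The proteins of the large subunit surround the peptidyl transferase centre and the exit tunnel. Of 51 large subunit genes 46 were kept, with a median log2 ratio of 0.53. Of these 46, 19 were at least 1.5-fold higher (41.3%, against 11.7% of all tested genes) and 1 lower (against 9.11%). The interval lay above 0 for 27, beside 31.5% of all tested genes. Rpl4, which lines the exit tunnel, had 43490 mimic and 30095 scramble reads, with a log2 ratio of 0.53 (0.51 to 0.55). Rpl32 had 3727 and 1649 reads, 1.18 (1.09 to 1.26), the highest ratio among members with over 1000 reads. Rpl39, a tunnel protein and one of the smallest in the ribosome, had 888 and 415 reads, 1.1 (0.93 to 1.27). Rpl41, smaller still, had 1705 and 881, 0.95 (0.83 to 1.07). Large subunit members were not all higher: Rpl8 had 32200 and 31196 reads, 0.05 (0.02 to 0.07), and Rpl15 had 7580 and 7573, 0 (-0.05 to 0.05). The interval of Rpl15 did not meet that of Rpl32, so members with ample reads differed from each other by more than counting error.

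The small subunit proteins hold the decoding site and the messenger RNA channel. Of 33 small subunit genes 30 were kept, with a median log2 ratio of 0.71. Of these 30, 17 were at least 1.5-fold higher (56.7%, against 11.7% of all tested genes) and 0 lower (against 9.11%). The interval lay above 0 for 22, beside 31.5% of all tested genes. Summed over members, the log2 ratio was 0.37, against 0.4 for the large subunit, so the subunits differed little by sum. Rps20 had 3965 reads in the mimic and 1819 in the scramble library, 1.12 (1.04 to 1.2). Rps26, which lies where messenger RNA leaves the ribosome, had 6447 and 3631, 0.83 (0.77 to 0.89). Rps3, which sits where messenger RNA enters, had 14383 and 11755, 0.29 (0.26 to 0.33). Rps9 had 15944 and 14825, 0.1 (0.07 to 0.14). Rps3 and Rps9 were higher in the mimic library by much less than Rps20 or Rps26.

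**Figure D2:**
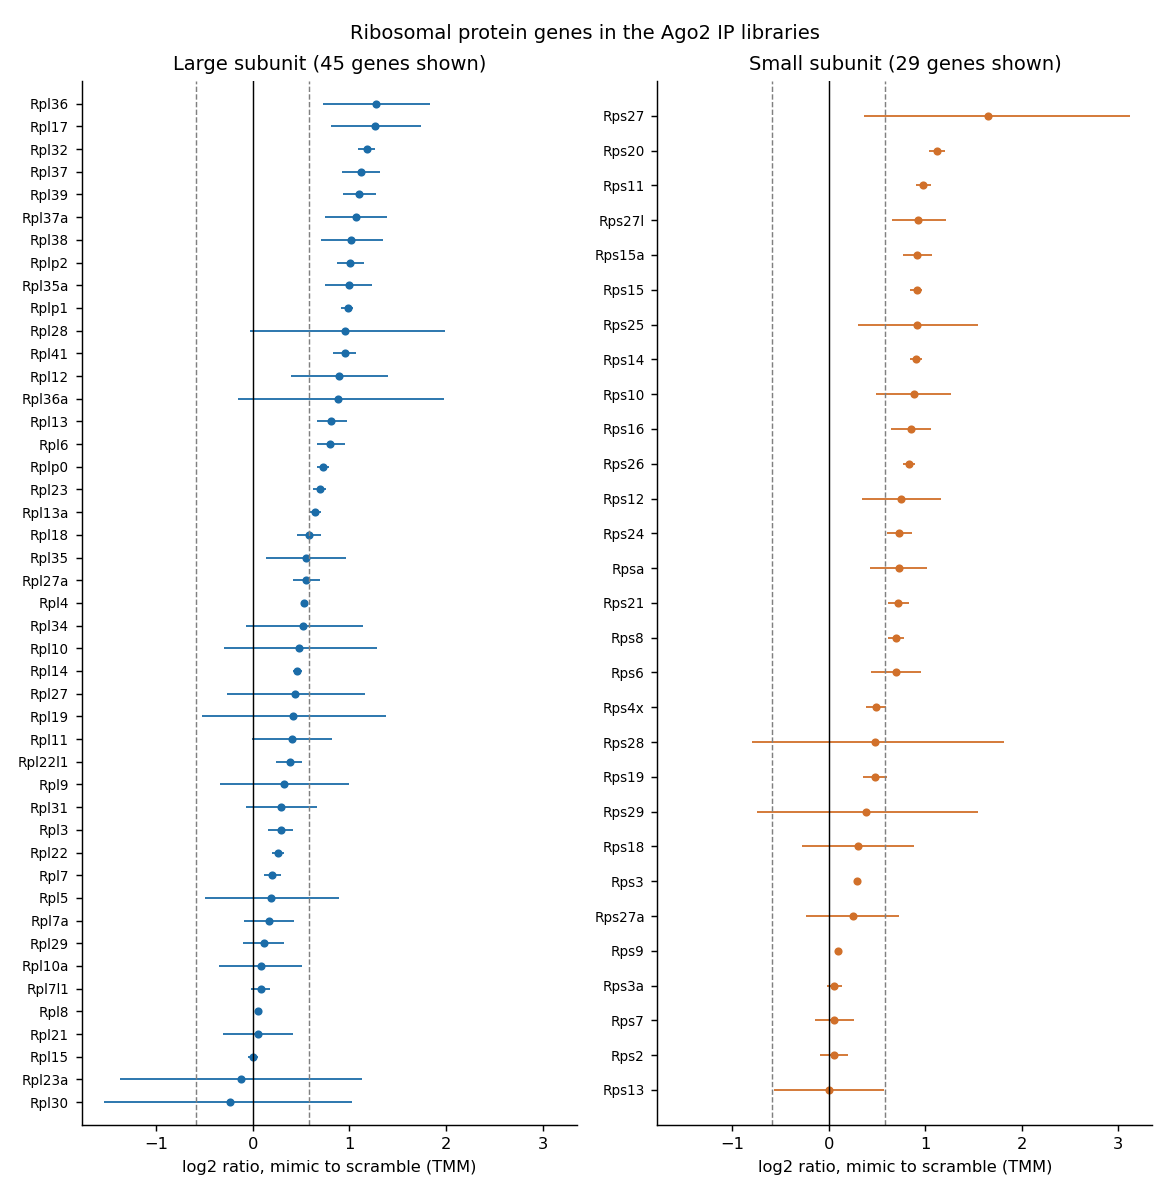
The log2 ratio of mimic to scramble for 45 large and 29 small subunit genes among the 76 kept, ordered by ratio within each subunit, with bars for the 95% counting interval and dashed lines at 1.5-fold either way. The ratios drawn run from -0.24 for Rpl30 to 1.65 for Rps27, and the widest bars belong to genes with few reads at both ends.

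The P stalk, formed by Rplp0 with Rplp1 and Rplp2, recruits the elongation factors. All 3 genes were higher in the mimic library. Rplp0 had 5054 and 3055 reads, a log2 ratio of 0.73 (0.66 to 0.79). Rplp1 had 6110 and 3103, 0.98 (0.91 to 1.04), and Rplp2 had 1214 and 603, 1.01 (0.87 to 1.15). Their summed log2 ratio was 0.87 (0.83 to 0.91). Rpsa, the small subunit protein also known as the laminin receptor, had 258 and 156 reads, 0.73 (0.43 to 1.02).

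Rpl5 and Rpl11, which carry 5S ribosomal RNA into the ribosome and bind the p53 regulator Mdm2 when assembly fails, had intervals that spanned 0. Rpl5 had 40 reads in the mimic and 35 in the scramble library, 0.19 (-0.5 to 0.89), and Rpl11 had 115 and 87, 0.4 (-0.01 to 0.82). Both belong to a list of 16 genes mutated in Diamond-Blackfan anaemia, an inherited failure of red cell production. Of these 16, 14 were kept, with a median log2 ratio of 0.46. At least 1.5-fold higher were 5 (35.7%, against 11.7% of all tested genes) and lower 0 (against 9.11%). An interval above 0 was found for 6, beside 31.5% of all tested genes. The other 2, Rpl26 among them, were under the read minimum. Among the 14, Rps19, the gene most often affected, had 1370 and 979 reads and a log2 ratio of 0.48. Rpl35a had 435 and 219 reads, 0.99, while Rps7 had 430 and 413, 0.06.

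The highest ratio of all, that of Rps27, rested on 22 reads in the mimic and 7 in the scramble library, 1.65 (0.37 to 3.12). The next were Rpl36 with 99 and 41 reads, 1.27 (0.73 to 1.83), and Rpl17 with 137 and 57, 1.26 (0.81 to 1.74). Several members at the lower end had few reads as well, but Rpl15 and Rpl8, also among the 6 lowest ratios, had ample reads. Rpl30 had 11 and 13, -0.24 (-1.54 to 1.03), Rpl23a had 12 and 13, -0.12 (-1.38 to 1.13), and Rps13 had 54 and 54. Each of these intervals spanned 0, and no member was lower by more than counting error. Rpl30, with 24 reads over both libraries, stood close to the read minimum. Just outside it was Rpl10l with 11 and 7 reads, followed by Rpl39l with 4 and 6, Rpl24 with 5 and 4, Rps23 with 4 and 0 and Rps4y2 with 3 and 1. Rpl26 and Rpl3l had 0 in both.

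Reads were concentrated on few members. The 5 members with most reads, among them Rpl4 and Rpl8, held 59.6% of the members' mimic reads and 65.4% of their scramble reads, with a summed log2 ratio of 0.25 (0.24 to 0.27). Without these 5 the summed ratio was 0.61 (0.6 to 0.63), a comparison chosen after their values were seen. Of the 37 members with at least 1000 reads, 33 had an interval above 0 and the median was 0.64. Intervals narrow with more reads, and Rpl8, at 0.05 (0.02 to 0.07), is among the 33. The share above 0 was 31.5% over all tested genes, and no share was taken over other genes with as many reads. The 22 members with under 200 reads had a median of 0.43, and 17 of them had an interval that spanned 0.

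Levels between members were compared per length, as CPM per kilobase of coding sequence in the scramble library. Counts are per gene and can include reads in untranslated regions, which the coding length leaves out. The 3′ untranslated region had 4728 bases for Rps15a and 35 for Rpl8, and its part in these levels was not tested. Rpl8 was at 2150, Rps9 at 1350, Rpl4 at 1280 and Rps3 at 858, whereas Rps27 was at 1.47 and Rpl10 at 2.07. Proteins that enter the ribosome in equal numbers differed by over 1000-fold in counted reads per coding length. The counting by the authors left out reads aligned to more than 1 place, so the share of each coding region found in no other gene was measured, as the percentage of its 50-base words absent from every annotated transcript of other genes. This share had a median of 9.65% over the members with a coding region, and 27 of those 83 had none. Over the 11697 other tested genes the median was 100%. A median of 9 other genes shared a 50-base word with a member, and the most was 120 for Rpl7a.

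Members with more unique sequence tended to have more reads. Unique words made up 91.9% of the coding region of Rps3, 91.3% of Rpl8, 79.8% of Rpl4 and 56.7% of Rps9. The 25 kept members with no unique coding word had a median of 57 reads in the scramble library (7 to 7573) and 5.69 CPM per coding kilobase. The 33 with up to 25% had a median of 415 reads (13 to 5431) and 39.8 CPM per coding kilobase. The 12 with over 50% had a median of 3524 reads (170 to 40825) and 463 CPM per coding kilobase. Across the 76 members, which share both libraries, the correlation of this share with log2 of the scramble reads was 0.68 (Pearson) and 0.68 (Spearman). There were exceptions. Rpl15 had 7573 scramble reads with no unique coding word, although 69.8% of its whole transcript was unique, and Rpl13a had 3971 with 2.49%, Rpl14 5431 with 22.1% and Rps26 3631 with 26.8%. Message level and uniquely alignable sequence were not told apart here, so this order of members is an order of counted reads.

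**Figure D3:**
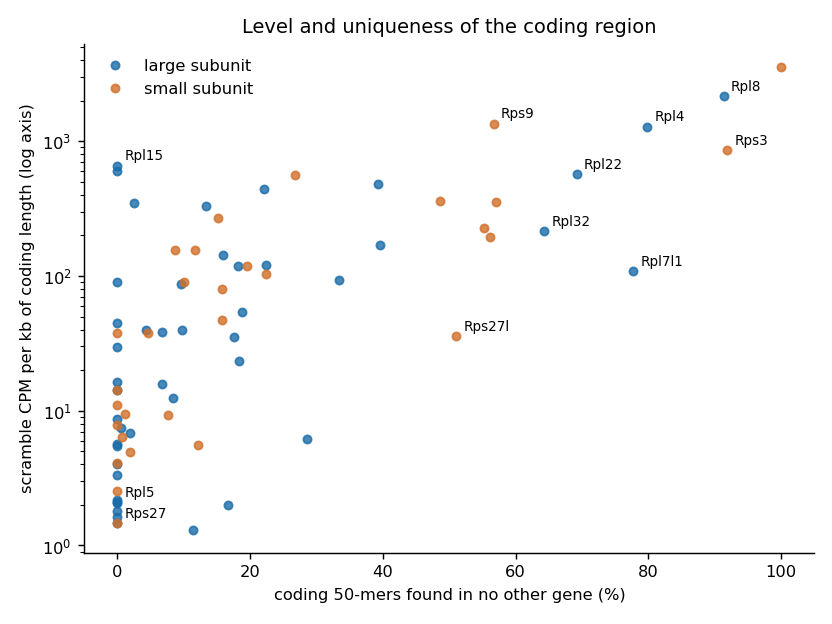
Scramble library CPM per kilobase of coding length (vertical axis, logarithmic) of each kept ribosomal protein gene against the percentage of its coding 50-base words found in no other gene (horizontal axis), with 1 point per gene. Members with no unique word have a median of 5.69 and those over 50% a median of 463.

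The ratio between the libraries did not follow that share. Median log2 ratios were 0.48 with no unique word, 0.55 up to 25%, 0.87 from 25 to 50% (6 members) and 0.41 over 50%, and the correlation over the 76 members was -0.04 (Pearson) and 0.03 (Spearman). Other tested genes in the same classes had medians of 0.2, 0.13, 0.18 and -0.01. Reads aligned to more than 1 place made up 39.8% of mimic library entries and 35.6% of scramble library entries. Their part in the members' ratios was not tested.

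Several members have a diverged relative that is also in the list, and such pairs were read apart where their sequences differ. The start of the coding region is shown for 2 pairs, 30 bases from the ATG, with the bases that differ within a pair in capitals.
Rps27: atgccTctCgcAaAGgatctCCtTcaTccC
Rps27l: atgccCctGgcTaGAgatctGTtAcaCccT
Rpl39: atgTcttctcacaagacTttcCgAatcaag
Rpl39l: atgGcttctcacaagacCttcAgGatcaag
Rps27 and Rps27l, a p53-responsive relative, are 76.1% identical over 255 coding bases and differ at 10 of the bases shown. Rps27l had 325 reads in the mimic and 170 in the scramble library, 0.93 (0.66 to 1.21), and 51% of its coding words were unique against 0 for Rps27. Rpl39 and Rpl39l are 85.3% identical over 156 bases and differ at 4 of the bases shown. Rpl39l, Rpl10l and Rpl3l, relatives with restricted expression in testis or muscle, had at most 11 reads in a library, although 100% of the coding words of Rpl39l and Rpl3l and 87.6% of those of Rpl10l were unique. Rpl22 had 4962 and 4129 reads, 0.26 (0.2 to 0.32), and its relative Rpl22l1 had 1062 and 817, 0.38 (0.24 to 0.51). Rpl7l1, a nucleolar relative of Rpl7, had 1592 and 1504, 0.08 (-0.02 to 0.18), and Rpl7 had 2096 and 1823, 0.2.

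Members are short, with a median coding length of 465 bases against 1400 over all tested genes, and ratios fell with length in members and in other genes. Over the 76 members, the correlation of the log2 ratio with log2 coding length was -0.42 (Pearson) and -0.51 (Spearman), and over 11696 other tested genes -0.33 and -0.4. The 10 members of up to 300 bases had a median of 0.99, with 80.0% at least 1.5-fold higher, while 214 other genes of that length had a median of 0.46 and 41.1%. The 43 members from 300 to 600 bases had a median of 0.58 and 48.8%, against 0.32 and 24.7% for 1193 other genes. The 20 members from 600 to 900 bases had a median of 0.26 and 30%, against 0.18 and 15.8% for 1602 other genes. The gap between the medians of members and other genes was 0.53 up to 300 bases, 0.26 from 300 to 600, 0.08 from 600 to 900 and 0.49 from 900 to 1500, where it rests on 3 members, beside a gap of 0.55 over all genes. Genes of over 3000 bases, of which none is a member, had a median of -0.24. Fragment lengths were not given in the sources used here, and the part of RNA size selection was not tested.

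**Figure D4:**
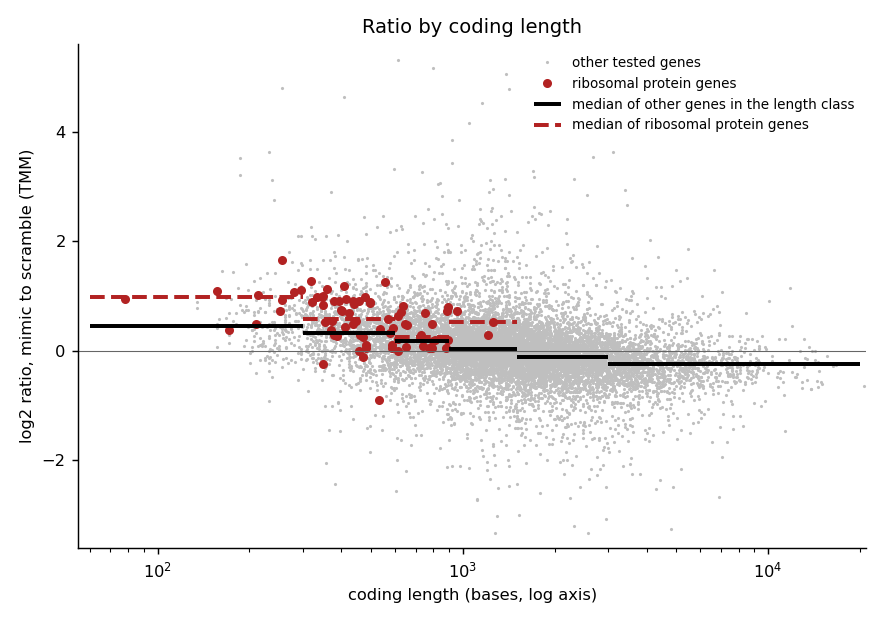
The log2 ratio of mimic to scramble against coding length in bases (logarithmic axis), with red points for ribosomal protein genes, grey points for other tested genes, and bars for class medians. The medians of other genes fall with length. Those of members fall up to 900 bases but stand at 0.53 from 900 to 1500 bases, a class with 3 members. The red bars stand above the black ones in each class that holds members. The 1 tested gene with 0 reads in a library is not drawn.

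Proteins of the mitochondrial ribosome, which translates the few messages of the mitochondrial genome, are encoded by nuclear genes of similar length and had a median above 0 as well, at 0.4. Of 75 tested genes, 70 had a ratio above 0, beside 6086 of all 12186 tested genes. At least 1.5-fold lower were 0, beside 9.11% of all tested genes, and at least 1.5-fold higher were 22. That was 29.3%, beside 11.7% of all tested genes and, among genes outside the members, 24.7% from 300 to 600 bases and 15.8% from 600 to 900. Mrpl14 had 399 reads in the mimic and 177 in the scramble library, 1.17, and Mrpl3 had 509 and 666, -0.39. Their median was 0.5 from 300 to 600 bases (35 genes) and 0.35 from 600 to 900 (22 genes), beside 0.58 and 0.26 for the cytosolic members. The order of the 2 families thus changed with the length class, and the difference between them was not tested.

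Genes that work with the cytosolic ribosome were closer to the middle of all genes, but they are also longer than members. Median coding lengths were 1220 bases for the translation factors, 1580 for the biogenesis genes and 1380 for the mTOR and Myc genes. That of the members was 465. These lists were not compared with members within length classes, so the part of length in the gap was not tested. The 49 tested translation factors had a median of 0.11, with 7 at least 1.5-fold higher and 1 lower (against 9.11% of all tested genes). The higher share, 14.3%, was near the 11.7% of all tested genes. Eif2b2, a subunit of the exchange factor for eIF2, had 798 and 458 reads, 0.8, and Etf1, the release factor, 5601 and 8413, -0.59. The 75 ribosome biogenesis genes had a median of 0.06, with 6 higher (8%, against 11.7%) and 4 lower (against 9.11%). Ncl, the nucleolar protein nucleolin, had 10216 and 5490 reads, 0.9, and Tsr1, an assembly factor of the small subunit, 846 and 1513, -0.84. A list of 22 genes of mTOR and Myc signalling had a median of -0.18. Of these, 1 was higher (4.55%, against 11.7% of all tested genes) and 2 lower (against 9.11%). Eif4ebp1, a translation repressor that mTOR inactivates, had 6040 and 3754 reads, 0.69, whereas its relative Eif4ebp2 had 483 and 1310, -1.44, and Deptor, an mTOR inhibitor, 45 and 227, -2.34.

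The host genes of small nucleolar RNAs, noncoding transcripts several of which also begin with a TOP tract, had the highest median of the 5 comparison lists. Of 9 tested, 9 had a ratio above 0, beside 6086 of all 12186 tested genes. At least 1.5-fold higher were 6 (66.7%, against 11.7% of all tested genes), and the median was 0.67. No coding length was available for these transcripts, so they were placed in no length class. The part of length in their ratios was not tested. Snhg6 had 1204 and 595 reads, 1.02, and Gas5 2542 and 1773, 0.52. Proteins of the ribosome whose symbols fall outside the rule had ratios in the members' range. Gnb2l1, the scaffold protein Rack1 of the small subunit, had 26735 and 17974 reads, 0.57 (0.54 to 0.6), and Fau, which encodes the small subunit protein eS30, had 138 and 92, 0.58 (0.19 to 0.98). Rpl36al, a relative of the member Rpl36a, had 278 and 190, 0.55.

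**Figure D5:**
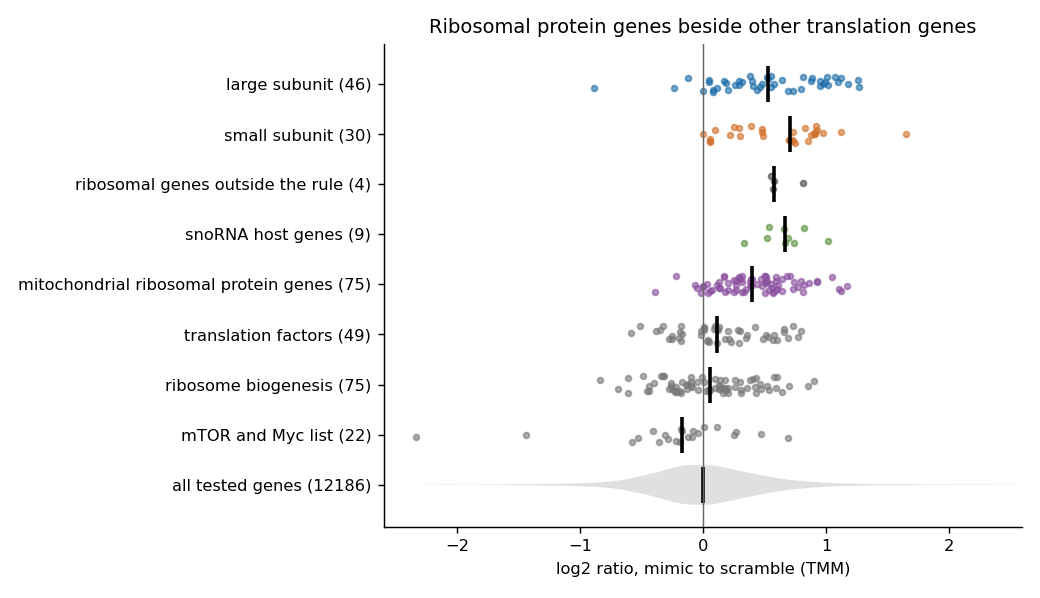
Log2 ratios of mimic to scramble for the cytosolic ribosomal protein genes by subunit, the 4 ribosomal genes outside the rule and 5 comparison lists, 1 point per gene, above the distribution of all tested genes, with bars for medians. The medians run from -0.18 for the mTOR and Myc list to 0.71 for the small subunit, and 53 tested genes beyond 2.6 on the log2 scale or with 0 reads in a library are left out of the distribution.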

How the data were processed

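The files held whole-number read counts per gene symbol, 1 file per library, deposited by the authors. Per the labels, the submitters' processing notes name CASAVA 1.8.2, TopHat2 2.0.8b, HTSeq and the mouse build mm9; read length and strand setting were not given in the sources used here. The counting left out reads aligned to more than 1 place. Entries that name no gene stayed out of the library sizes: assigned to genes were 52.7% of entries in the mimic and 55.9% in the scramble library, aligned to more than 1 place 39.8% and 35.6%, in no gene 6.84% and 7.89%, and ambiguous 0.653% and 0.585%.

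Counts were scaled by TMM (edgeR 4.0.16), and genes with at least 20 reads over both libraries were kept. Intervals of the log2 ratio are exact 95% Clopper-Pearson intervals, computed on the fraction of a gene's reads that came from the mimic library. Calls were ratios of at least 1.5-fold or 2-fold, or an interval that excluded 0. With 1 library per group no test of the conditions was possible. Scaling and word counting were tested on simulated data. Coding regions and words came from GENCODE M21 on GRCm38, matched by symbol, and promoters and microRNA from RefSeq GRCm38.p6. No coordinate was carried between builds. Words were exact matches on the same strand.

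Genes named in the text were the 6 highest and 6 lowest ratios, the members with most reads, the stalk, the 5S particle and the paralogues, and in each comparison list the genes at its ends, with a few others chosen after their values were seen. The members and lists were chosen with earlier results of these data known. Alternatives were DESeq2 1.42.0 size factors, total counts, TMM without the members, other read minimums and folds, word lengths of 36 and 100, and leaving out the 5 members with most reads. Values of a few genes that these rules select are not reported here.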

Additional observations from a re-analysis of the deposited data

Results flagged for a closer look

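Reads aligned to more than 1 place, which the gene counts leave out, made up 39.8% of mimic library entries (14095378) and 35.6% of scramble library entries (11915725). This signal lies outside the counts compared above and was higher in the mimic library than in the control. Which genes these reads belong to was not analysed here, and with 1 library per group the difference has no replicate check.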

How the results depend on the processing

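Of 55 alternatives to the summary values, 48 stayed within the limits set for a change. For the members' median these limits were 0.14 to 0.96, the counting interval of the single gene Rpl35. For the large subunit median they were -0.07 to 1.14, that of Rpl34. Limits this wide are not the spread of a median, so staying within them says little. The members' median was 0.7 with a minimum of 200 reads, against 0.55 in the main setting. Members at least 1.5-fold lower numbered 2 with a minimum of 1 read and 0 with a minimum of 200 reads, and 0 members were 2-fold lower. The members' summed log2 ratio was 0.4 with a minimum of 200 reads and 0.61 without the 5 members with most reads. Members called higher numbered 10 at 2-fold and 19 among those with at least 1000 reads. The comparisons without 5 members and above 1000 reads were chosen after seeing the data. The 3 other scalings moved all ratios by at most 0.0075 and TMM on genes with at least 200 reads by 0.0106. For 37 named members under the 3 scalings, all 111 values stayed within the counting interval, though Rps13, with equal counts, moved from 0 to 0.01 by total counts. The correlation of reads with unique words was 0.68 with 36-base and 0.61 with 100-base words (Pearson). Leaving out the first member by reads alone is not reported here. No paired analysis was possible because each group holds 1 library, and for the same reason no library could be left out.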
